A study of Mus musculus with 2 samples.

Results

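Promoters of 1331 long noncoding RNA (lncRNA) genes were examined for trimethylation of histone H3 at lysine 4 (H3K4me3) in E14TG2a.4 cells, a mouse embryonic stem cell line from a male embryo of strain 129/Ola, at 3.5 days per the labels. The RefSeq gene table for GRCm38.p6 (mm10) held 12637 lncRNA genes on chromosomes. It gives no strand, so each gene's direction came from a GENCODE vM1 entry with its name and chromosome, which 1897 of them had. Of these, 566 began less than 2 kb from a protein-coding 5′ end and were set apart, because a peak there could not be assigned to either gene. The remaining 1331 genes were all kept, marked or not, and the rule that selects them uses no peak of these data. That rule was chosen with earlier results of these data known. A vM1 name is not fully independent of the mark, since part of the vM1 lincRNA class was annotated with the help of H3K4me3 regions. A promoter was the 1 kb on either side of the 5′ end, and it was called marked when a peak overlapped it.

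The study comprised 2 biological replicates in 1 group, untreated as far as the labels say, each profiled by chromatin immunoprecipitation followed by sequencing (ChIP-seq) with an H3K4me3 antibody. Both replicates came from 1 cell line, so their spread describes this line only. The deposited mm10 data were a peak list for each replicate, a list from the pooled replicates and a replicated list, which was used throughout unless another is named. With 1 group no difference between conditions could be tested, and the shares and medians are given as descriptions. Shares carry Wilson 95% intervals, which cover counting error over genes only.

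LncRNAs are transcripts longer than the small RNAs that do not encode a known protein. Many are made by RNA polymerase II from promoters like those of coding genes, where H3K4me3 is deposited by the SET1 and MLL methyltransferase complexes around the first nucleosomes of the transcribed region. The complexes are drawn to unmethylated CpG-rich DNA through proteins with a CXXC zinc finger, and in embryonic stem cells the mark also lies on CpG-rich promoters of silent developmental genes, together with the Polycomb mark H3K27me3. Some lncRNAs are hosts from whose introns small nucleolar RNAs (snoRNAs) or microRNAs are cut, some act in imprinting or X inactivation, and most of those in the table have no known function.

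The promoters that show the span of the results are given first, from the RefSeq promoter table for GRCm38.p6, from 250 bases before the annotated start to 50 after it, 5′ to 3′ on the gene's strand, with every CpG in capitals. The table held a promoter within 1 kb of the 5′ end for 1053 of the 1331 genes. Snhg7 had the highest signal of all, Gm11205 the highest of those more than 100 kb from a coding 5′ end, and Snhg5 carried the most CpGs of those shown. Malat1 and Meg3 represent a nuclear and an imprinted RNA with fewer CpGs and a peak. Airn has few CpGs and a weak peak, and Xist had no peak in the replicated list.
Snhg7, chr2:26640195-26640494, minus strand: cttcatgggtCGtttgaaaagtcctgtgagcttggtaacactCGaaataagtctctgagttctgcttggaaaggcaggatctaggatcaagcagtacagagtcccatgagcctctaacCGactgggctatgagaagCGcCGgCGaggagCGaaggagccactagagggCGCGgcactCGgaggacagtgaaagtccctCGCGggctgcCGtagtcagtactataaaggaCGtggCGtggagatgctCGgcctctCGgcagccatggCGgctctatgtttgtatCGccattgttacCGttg
Gm11205, chr11:79704320-79704619, plus strand: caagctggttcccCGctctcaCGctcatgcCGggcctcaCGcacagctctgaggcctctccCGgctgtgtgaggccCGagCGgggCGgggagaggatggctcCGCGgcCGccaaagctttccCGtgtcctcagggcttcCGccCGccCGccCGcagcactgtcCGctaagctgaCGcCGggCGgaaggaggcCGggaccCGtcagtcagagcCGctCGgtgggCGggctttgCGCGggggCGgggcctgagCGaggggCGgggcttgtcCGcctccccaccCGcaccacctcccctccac
Snhg5, chr9:88522848-88523147, minus strand: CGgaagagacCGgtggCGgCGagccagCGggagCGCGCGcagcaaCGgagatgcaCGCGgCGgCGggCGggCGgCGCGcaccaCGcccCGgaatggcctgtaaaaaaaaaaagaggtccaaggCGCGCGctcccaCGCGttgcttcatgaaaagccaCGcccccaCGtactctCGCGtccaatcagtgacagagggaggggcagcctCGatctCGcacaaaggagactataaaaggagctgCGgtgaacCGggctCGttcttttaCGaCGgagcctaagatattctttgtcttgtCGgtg
Malat1, chr19:5802623-5802922, minus strand: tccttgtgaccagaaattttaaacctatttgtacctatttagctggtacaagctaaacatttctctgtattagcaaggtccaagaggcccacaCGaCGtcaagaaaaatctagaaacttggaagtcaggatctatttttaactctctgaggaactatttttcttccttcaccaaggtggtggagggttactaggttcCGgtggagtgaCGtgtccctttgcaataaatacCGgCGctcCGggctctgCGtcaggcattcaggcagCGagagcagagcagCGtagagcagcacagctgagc
Meg3, chr12:109540746-109541045, plus strand: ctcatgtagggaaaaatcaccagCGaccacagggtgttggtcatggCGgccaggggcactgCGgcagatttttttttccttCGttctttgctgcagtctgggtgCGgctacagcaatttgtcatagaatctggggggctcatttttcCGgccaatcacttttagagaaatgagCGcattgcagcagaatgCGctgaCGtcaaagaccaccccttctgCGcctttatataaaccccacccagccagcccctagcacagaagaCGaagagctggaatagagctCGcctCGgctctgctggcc
Airn, chr17:12741061-12741360, plus strand: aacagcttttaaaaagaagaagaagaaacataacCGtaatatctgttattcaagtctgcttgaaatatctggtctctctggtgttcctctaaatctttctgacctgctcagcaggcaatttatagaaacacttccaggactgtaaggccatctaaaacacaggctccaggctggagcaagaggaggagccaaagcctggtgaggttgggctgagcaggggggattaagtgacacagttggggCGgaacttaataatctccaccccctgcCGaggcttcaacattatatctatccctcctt
Xist, chrX:103483184-103483483, minus strand: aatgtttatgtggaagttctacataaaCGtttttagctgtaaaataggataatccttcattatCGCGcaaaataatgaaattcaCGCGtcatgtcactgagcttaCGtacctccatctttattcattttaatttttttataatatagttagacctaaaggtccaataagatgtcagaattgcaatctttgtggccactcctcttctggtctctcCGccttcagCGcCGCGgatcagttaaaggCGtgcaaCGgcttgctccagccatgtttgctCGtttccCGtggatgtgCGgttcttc

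These 300 bases held 20 CpGs in Snhg7, 32 in Gm11205, 36 in Snhg5, 10 in Malat1, 13 in Meg3, 3 in Airn and 15 in Xist. Their GC content was 55.3% in Snhg7, 74.0% in Gm11205, 62.0% in Snhg5, 47.0% in Malat1, 53.7% in Meg3, 45.7% in Airn and 41.3% in Xist. The string TATAAA, the core of the TATA box, began 30 bases before the start of Snhg7, 23 before that of Snhg5 and 25 before that of Meg3. A cAMP response element, TGACGTCA, began 57 bases before the start of Meg3. The string CCAAT began 72 bases before the start of Snhg5, 100 before that of Meg3 and 89 before that of Xist. Such matches are letters in a window and do not show that a factor was bound.

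A peak lay at 450 of the 1331 promoters (33.8%, interval 31.3 to 36.4%). The background was 56.7% of the 24990 genes of every type with a vM1 name in the same list. At the same genes 57.3% were marked in the replicate 1 list and 57.1% in the replicate 2 list. Among lncRNA promoters 477 were marked in replicate 1 (35.8%) and 466 in replicate 2 (35.0%), a mean of 35.4% ± 0.584 (SD, n = 2). The lncRNA share thus lay below that of all genes in every one of these lists. The strongest peaks of the 450 marked genes were 445 distinct peaks, since 10 genes shared theirs with another lncRNA gene.

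Other gene classes were read in the same way. Protein-coding genes more than 2 kb from any other coding 5′ end were marked in 10425 of 16108 cases (64.7%, interval 64.0 to 65.5%). MicroRNA genes were marked in 114 of 460 cases (24.8%, interval 21.1 to 28.9%) and pseudogenes in 292 of 3675 (7.95%, interval 7.11 to 8.86%). The share of the 1331 lncRNA promoters thus lay between those of coding and microRNA genes, and none of these intervals overlapped theirs. Peaks at microRNA genes were less confined to the 5′ end. A peak covered the 5′ end itself in 18.3% of them and the position 5 kb upstream in 14.3%. For the 1331 lncRNA genes these shares were 26.7% and 6.01%. The 566 lncRNA genes within 2 kb of a coding 5′ end were marked in 532 cases (94.0%), a share that cannot be told apart from that of their coding neighbours. Another 6875 lncRNA genes without a vM1 name took their strand from the promoter table and were marked in 1306 cases (interval 18.1 to 19.9%). The 1331 genes, all annotated by the time of vM1, were marked in a larger share than these other lncRNA genes, a comparison that the source of the vM1 names also touches.

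The background of the method was read at the genes' own 3′ ends. A peak lay within 1 kb of the 3′ end of 225 of the 1331 lncRNA genes (16.9%), against 18.6% of 3′ ends of all genes with a vM1 name. LncRNA genes can be short, so the 3′ window can lie inside the same domain as the start. For the 646 genes spanning more than 10 kb whose 3′ end was also more than 2 kb from a coding 5′ end, the 3′ share was 8.36% (interval 6.46 to 10.7%). The 5′ share of the same 646 genes was 29.4% (interval 26.0 to 33.0%), above that of their 3′ ends.

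**Figure D1:**
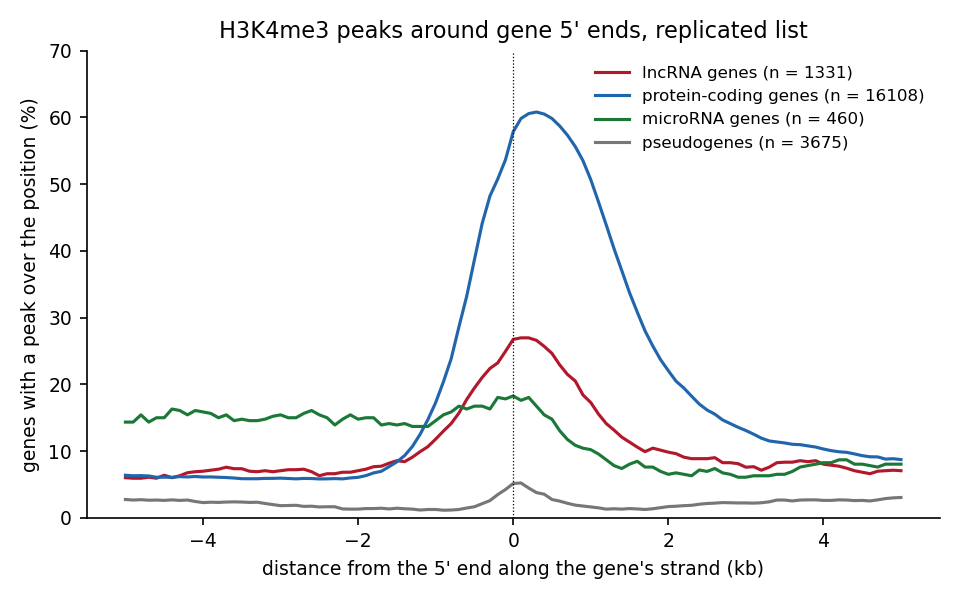
Percent of genes with a peak of the replicated list over each position (y axis) against the distance from the 5′ end along the gene's strand in kb (x axis), for 1331 lncRNA genes, 16108 protein-coding genes, 460 microRNA genes and 3675 pseudogenes. The lncRNA curve peaks at 27.0% just after the 5′ end, above its level of 6.01% at 5 kb upstream, and the coding curve peaks at 60.8%.

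Peaks followed the start along the strand. The share of lncRNA genes with a peak over a single position was highest 100 bp after the 5′ end, at 27.0%, and was 6.01% at 5 kb upstream and 7.06% at 5 kb downstream. For coding genes it was highest 300 bp after the 5′ end, at 60.8%, with 6.38% at 5 kb upstream and 8.73% at 5 kb downstream. The curves of both classes lay at a like level 5 kb upstream, and the coding curve stayed higher downstream, at 22.1% against 9.84% at 2 kb. The summit of the strongest peak lay a median of 178.5 bp downstream of the lncRNA 5′ end (quartiles -257.75 and 434 bp), and downstream at 304 of 450 genes (67.6%). At coding genes the median was 295 bp (quartiles 193 and 515 bp), with 91.1% downstream. The lncRNA summits were thus spread to both sides more than those of coding genes.

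The marked lncRNA promoters carried weaker and narrower peaks than coding promoters. The authors' signal value of the strongest peak had a median of 12.9 (quartiles 6.18 and 30.0), against 39.4 (quartiles 21.1 and 55.4) at the 10425 coding genes. Only 72 of the 450 lncRNA promoters (16.0%) reached the coding median, and 83 (18.4%) had a signal under 5, against 4.05% of marked coding genes. Neighbouring peaks with gaps under 1 kb were merged into domains, whose median width was 1891.5 bp (quartiles 1023 and 3352 bp) at lncRNA promoters and 2287 bp (quartiles 1595 and 3422 bp) at coding ones. The quartile ranges of width overlapped over most of their length, and those of signal over a smaller part.

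The replicates gave nearly the same marked set. Of the lncRNA promoters, 436 were marked in both, 41 in replicate 1 only, 30 in replicate 2 only and 824 in neither. Promoters marked in a single replicate had weak peaks, with a median signal of 3.18 in replicate 1 and 3.22 in replicate 2. Across the 436, Spearman's rho of the signals was 0.961, which describes points that share their libraries and a cell line. The higher of the 2 signals was a median of 1.15 times the lower. In 44 genes it was over 1.5 times, of which 34 were higher in replicate 1 and 10 in replicate 2. Among the strongly marked genes, Snhg12 had signals of 39.5 and 69.7 in replicates 1 and 2, and Gm16201 had 33.0 and 54.9, both higher in replicate 2. Gm12784 went the other way, with 44.3 and 25.3.

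**Figure D2:**
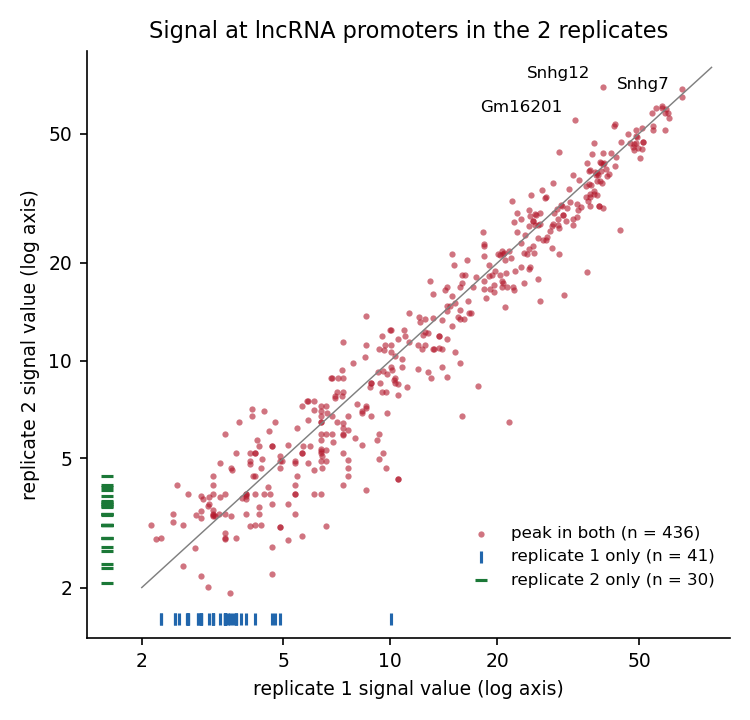
Signal value of the strongest promoter peak in replicate 1 (x axis) and replicate 2 (y axis), both on log axes, for lncRNA genes. Each red point is 1 of 436 genes with a peak in both, ticks at the edges are the 41 and 30 genes with a peak in a single replicate, and the line marks equal values. Points lie along the line and scatter most at low signal.

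CpG content of the promoter went with marking. Promoters were classed from the mm9 sequence around the 5′-most vM1 start, as high-CpG when a 500 bp window exceeded 0.75 in its ratio of observed to expected CpGs and 55% in GC, as low-CpG when no window had a ratio over 0.48, and otherwise as intermediate. Of the lncRNA promoters, 133 were high-CpG, 338 intermediate and 860 low-CpG. A peak lay at 107 of the high class (80.5%, interval 72.9 to 86.3%), 165 of the intermediate (48.8%, interval 43.5 to 54.1%) and 178 of the low (20.7%, interval 18.1 to 23.5%). The same classes of coding genes were marked at 95.6%, 85.0% and 26.6%. Within each class the lncRNA share was below the coding share and their intervals did not overlap, with the widest gap in the intermediate class.

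Class also went with the strength of the peak. Marked high-CpG lncRNA promoters had medians of 33.8 in signal and 2579 bp in width, intermediate ones 12.8 and 1835 bp, and low-CpG ones 7.48 and 1404 bp. The coding medians of signal were 48.7, 33.8 and 14.8 in the same order. High-CpG lncRNA promoters thus had the median signal of intermediate coding promoters. In the 300-base RefSeq promoters the marked genes had a median of 10 CpGs and 55% GC, and the unmarked genes 3 CpGs and 47% GC.

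The gap at high CpG was smaller under another definition of the class, which differed in start, build, length and the genes covered. When the class was taken from the 300-base RefSeq promoter, 68 of 70 high-CpG lncRNA promoters were marked (97.1%, interval 90.2 to 99.2%), against 99.6% of coding ones. The intermediate and low classes had 66.1% and 22.5%, against 94.4% and 28.3% of coding promoters. Of the 26 unmarked lncRNA promoters that the vM1 window had put in the high class, 18 had a 300-base promoter, which was low-CpG in 14, intermediate in 4 and high in 0. The first of the 26 in alphabetical order were 1500002F19Rik, 1700049J03Rik, 2410018L13Rik, 3110039M20Rik and 4930412F09Rik. No peak was found at these in either replicate. The RefSeq promoters of 1500002F19Rik and 3110039M20Rik held a single CpG each.

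**Figure D3:**
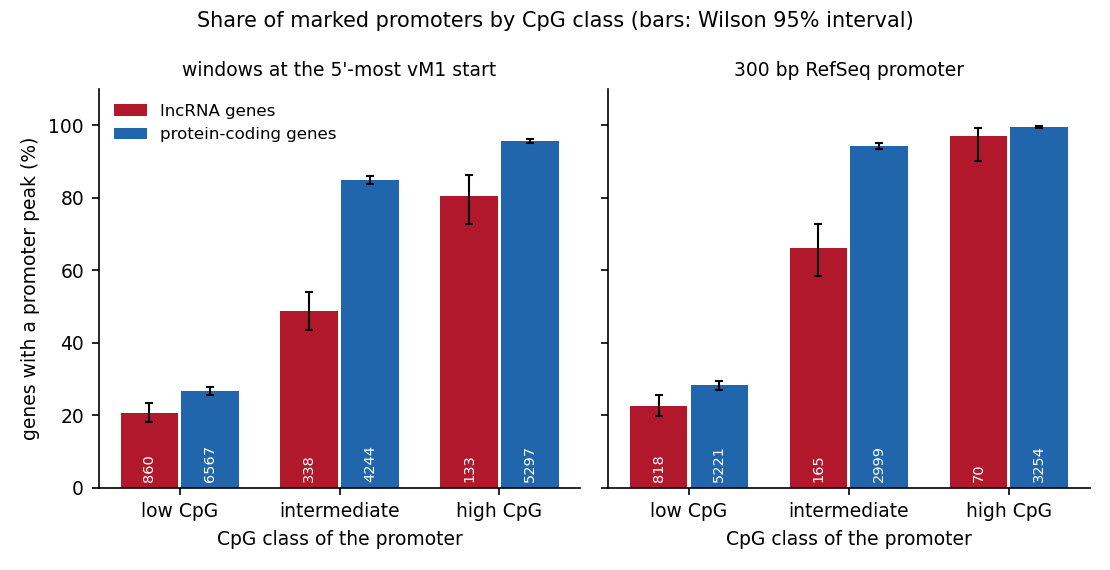
Percent of genes with a promoter peak (y axis, bars start at 0) by CpG class (x axis) for lncRNA genes in red and protein-coding genes in blue, with the number of genes in each bar and Wilson 95% intervals as lines. The class is from 500 bp windows at the vM1 start on the left and from the 300 bp RefSeq promoter on the right. At high CpG the lncRNA share is 80.5% on the left and 97.1% on the right.

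Among low-CpG promoters the peaks of 5 genes were the strongest by the vM1 class. 2410003L11Rik had a signal of 58.0 (54.8 in replicate 1 and 52.7 in replicate 2), 0610043K17Rik 54.4 (51.4 and 47.2), Gm12843 44.0 (39.2 and 38.3), 4930461G14Rik 42.5 (37.4 and 33.3) and Gm7628 39.8 (32.5 and 37.3). The replicated-list values lie above 14.8, the median signal of marked low-CpG coding genes in that list, but the 5 were picked for high signal. The class did not hold for each of them, since the RefSeq promoter of Gm12843, within Rnf220 on the other strand, held 42 CpGs at 78% GC. The summit at 0610043K17Rik lay 2323 bp downstream of its 5′ end, inside a peak that reached back to that end. The domain at Gm7628 reached the 5′ end of Plxnb1, which encodes a semaphorin receptor.

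Short motifs were searched on both strands of the 300-base promoters, and none of the strings used contains another. The GC box GGGCGG, bound by Sp1 and its relatives, was in 40.7% of 361 marked lncRNA promoters and 7.80% of 692 unmarked ones, against 67.2% of marked coding promoters and 35.7% of all 25029 promoters. The ETS string CCGGAAG was in 10.5% of the marked and 2.17% of the unmarked, against 14.4% of marked coding promoters and 9.08% of all. TATAAA went the other way, with 9.14% of the marked and 16.8% of the unmarked, against 7.21% and 14.4%. CCAAT was in 31.9% and 36.8%, with 38.0% of all promoters. The E-box CACGTG was in 8.31% and 3.76%, and in 7.24% of all. The GC box, the ETS string and the E-box each hold a CpG, and their shares cannot be told apart from CpG content in this comparison. Among 300-base promoters of low CpG alone, GGGCGG was in 22.3% of 184 marked and 6.62% of 634 unmarked. There CCGGAAG was in 9.78% and 1.74%, and CACGTG in 5.98% and 3.79%. The number of CpGs was not matched within this class, so CpG content was not held fixed.

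Marking also went with the distance to the nearest coding 5′ end. At 2 to 5 kb 64 of 92 lncRNA promoters were marked (69.6%, interval 59.5 to 78.0%), at 5 to 20 kb 129 of 312 (41.3%), at 20 to 100 kb 192 of 588 (32.7%) and beyond 100 kb 65 of 339 (19.2%, interval 15.3 to 23.7%). The share fell from class to class, and the median signals were 22.4, 17.5, 10.6 and 8.30. CpG content moved with distance: 29 of the 92 nearest promoters were high-CpG, against 10 of the 339 farthest. Within the low-CpG class the shares were 48.7%, 24.9%, 22.7% and 10.5%. In the intermediate class they were 79.2%, 51.7%, 44.8% and 43.8%. In the high-CpG class they were 89.7%, 83.3%, 76.1% and 60.0%, the last of 10 promoters only. The order of the shares was thus the same within each class. In the high-CpG class all intervals overlapped, with 73.6 to 96.4% nearest and 31.3 to 83.2% farthest. The intervals of the nearest and farthest promoters did not overlap in the low and intermediate classes.

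**Figure D4:**
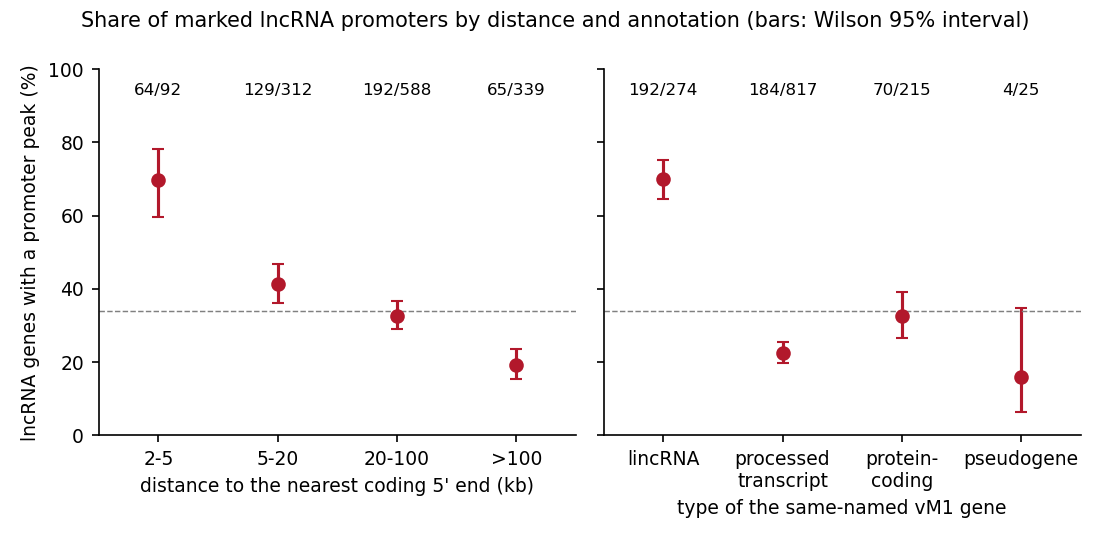
Percent of lncRNA genes with a promoter peak (y axis) by distance to the nearest protein-coding 5′ end in kb (left) and by the type of the vM1 gene of the same name (right), with Wilson 95% intervals as bars and marked over all genes at the top. The dashed line is 33.8% of all 1331 genes. The share falls from 69.6% to 19.2% with distance and is 70.1% for lincRNAs.

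The nearest coding promoter was itself marked for 989 of the 1331 genes. Of these lncRNA promoters 35.4% were marked (interval 32.5 to 38.4%), against 29.2% of the 342 with an unmarked neighbour (interval 24.7 to 34.3%), and the intervals overlapped. At 2 to 5 kb the shares were 69.7% of 66 and 69.2% of 26. At 5 to 20 kb they were 45.9% of 220 and 30.4% of 92. At 20 to 100 kb they were 35.2% of 440 and 25% of 148. Beyond 100 kb they were 18.3% of 263 and 22.4% of 76. The share at 2 to 5 kb was thus nearly as large where no peak lay around the neighbour's 5′ end, on 26 genes only. Each neighbour was read at a single 5′ end, so a peak at an alternative start of it was not counted. Whether peaks at such starts account for marking beside these neighbours was not tested. From 5 to 100 kb the share was higher beside a marked neighbour, and beyond 100 kb it was lower. The intervals overlapped in every distance class, at 5 to 20 kb with 39.5 to 52.5% against 22.0 to 40.5%.

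Some peaks were part of a coding gene's domain. Of the 450 marked promoters, 37 (8.22%) lay in a domain that reached the 1 kb around a coding 5′ end, and 413 did not. Here and below, reach was judged against a single 5′ end per coding gene, without alternative starts. In those 37 the median width was 7225 bp and the median signal 28.7, against 1727 bp and 11.9 for the other 413. Alternative coding starts in the promoter table lay within 2 kb of 58 lncRNA promoters, of which 47 were marked (81.0%). Without these 58 genes 403 of 1273 were marked (31.7%) and the median signal was 11.2.

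The distance limit itself can be seen at its edge. The 3 lncRNA genes just beyond 2 kb were 2900079G21Rik (2011 bp, signal 14.4), D930032P07Rik (2041 bp, signal 28.2) and Gm15241 (2086 bp, unmarked). Just under it, and so not among the 1331, were 4732440D04Rik (1978 bp, signal 51.3), Gm12426 (1971 bp, signal 18.3) and Gm10602 (1968 bp, signal 47.7). A total of 5 of these 6 were marked, and at each of the marked ones the domain reached the 1 kb around the coding 5′ end. At this distance that region and the lncRNA promoter nearly touch, so the reach says little. The domains of 2900079G21Rik and Gm12426 stopped short of the coding 5′ end itself.

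Position in a coding gene made a smaller difference. LncRNA genes that began inside a coding gene on the other strand were marked in 175 of 441 cases (39.7%, interval 35.2 to 44.3%), and those outside coding genes in 272 of 867 (31.4%, interval 28.4 to 34.5%). High-CpG promoters made up 62 of the 441 and 70 of the 867. In the high-CpG class the shares were 80.6% inside and 80.0% outside, and in the intermediate class 45.1% and 51.2%. Only in the low-CpG class did the intervals not overlap, with 27.2% (22.2 to 33.0%) inside and 18.3% (15.4 to 21.7%) outside. Of 23 that began inside a coding gene on the same strand 3 were marked. Among the 178 marked genes inside a coding gene, the domain reached the 5′ end of that gene in 29. On the X chromosome 16 of 66 lncRNA promoters were marked (24.2%, interval 15.5 to 35.8%), and 34.3% elsewhere (interval 31.7 to 37.0%).

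The class given by the older annotation separated the genes more. Of 274 genes that vM1 called lincRNA, the long intergenic class, 192 were marked (70.1%, interval 64.4 to 75.2%). Of 817 called processed transcript 184 were marked (22.5%, interval 19.8 to 25.5%), of 215 called protein-coding in vM1 and lncRNA in RefSeq 70 (32.6%), and of 25 called pseudogene 4. The median signals were 22.3 for lincRNAs and 7.33 for processed transcripts. Among low-CpG promoters alone 55 of 103 lincRNAs were marked (53.4%) and 94 of 599 processed transcripts (15.7%), and among intermediate ones 80 of 104 (76.9%) and 60 of 177 (33.9%). Among high-CpG ones 57 of 67 lincRNAs were marked (85.1%, interval 74.7 to 91.7%) and 30 of 41 processed transcripts (73.2%, interval 58.1 to 84.3%), and the intervals overlapped. The lincRNA class of that annotation drew in part on regions of H3K4me3 and H3K36me3, as background, so it is not independent of the mark measured here. Counting only domains that reached no coding 5′ end, 171 of the 274 lincRNAs and 170 of the 817 processed transcripts were marked. The totals here still include the genes whose domain did reach one.

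The names of the genes also went with marking. Genes named after the RIKEN cDNA collection were marked in 216 of 527 cases (41.0%), and those with a predicted-gene name starting with Gm in 208 of 731 (28.5%). All 7 genes named as small RNA hosts were marked (interval 64.6 to 100%), against 33.8% of all 1331 and 56.7% of all genes. Their median signal was 62.0. They are 6 Snhg genes and Mir17hg, which the fixed lists below count again. Of 62 genes with other names 18 were marked (29.0%).

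The 10 highest signals belonged to snoRNA hosts and to little-studied genes. Snhg7 (NCBI Gene 72091, chromosome 2) had 77.7, with 66.0 in replicate 1 and 64.8 in replicate 2. 2700012I20Rik, which begins within the corepressor gene Sin3a on the other strand, had 76.5 (66.1 and 68.4), and its domain reached the Sin3a start. Snhg4 had 68.5 (58.2 and 59.9). 4930577N17Rik had 67.3 (58.0 and 60.9), Gm10244 67.1 (59.7 and 59.6), Gm11205 67.0 (60.2 and 58.0), 4930404I05Rik 66.9 (59.2 and 58.0), Gm16796 66.6 (60.7 and 55.8), Snhg5 65.7 (55.8 and 59.8) and 1110038B12Rik 65.4 (59.1 and 51.2). All lay above the coding median of 39.4 in the replicated list, and 8 of the 10 had domains that reached no coding 5′ end. The exceptions were 2700012I20Rik and Gm10244, whose domain reached Mkrn1. Alternative coding starts were not compared with these domains. Of the 8, 4930577N17Rik began inside Elf2, Gm16796 inside Pfdn4 and 4930404I05Rik inside Synj1, each on the other strand.

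Some strong peaks lay far from any annotated coding gene start. Gm11205 (NCBI Gene 102632809) begins at position 79704570 of chromosome 11 in mm10, 113.5 kb from the 5′ end of Rab11fip4 and outside coding genes. Its peak spanned 79702904 to 79705493 and was 2.59 kb wide. A230028O05Rik, 227.2 kb from Tprg, had a signal of 42.6 (39.4 in replicate 1 and 35.2 in replicate 2). 2610035D17Rik, 417.5 kb from the somatostatin receptor gene Sstr2, had 40.1 (37.4 and 32.6). 1700030C10Rik had 39.8 (35.5 and 34.5), and Gm12784, 108.6 kb from Kctd15, had 37.6 (44.3 and 25.3). The last differed most between replicates, and its RefSeq promoter held 8 CpGs.

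The widest domains were mostly shared with coding genes. In all, 19 lncRNA promoters lay in domains of 10 kb or more, and 11 of these domains reached a coding 5′ end. The widest, 34.2 kb on chromosome 11, held Gm11613 with the starts of Mllt6 and Cisd3 and measured 32532 bp in replicate 1 and 33762 bp in replicate 2. Gm12867 lay in 28.1 kb that reached the glucose transporter gene Slc2a1, 0610005C13Rik in 25.8 kb that reached Hsd17b14 and Bcat2, and 2410080I02Rik in 25.6 kb that reached the Kruppel-like factor gene Klf9. In replicate 2 the domain was only 2289 bp wide at Gm12867 and 1504 bp at 0610005C13Rik. Their own peaks were weak, at 4.46 for Gm12867 and 3.02 for 0610005C13Rik, while that of 2410080I02Rik was 28.5.

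Most of the other wide domains named also reached a coding gene. Gm16201 lay in 17.1 kb (10238 bp in replicate 2) that reached Utf1, a chromatin factor of pluripotent cells, with its summit at -5680 bp relative to the lncRNA 5′ end. Gm17232 lay in 18.4 kb that reached Tdh, the threonine dehydrogenase on which mouse embryonic stem cells rely, with a signal of 10.5 (9.54 and 9.32). C230035I16Rik lay in 18.5 kb (10956 bp in replicate 1 and 12247 bp in replicate 2) that reached Abt1. Gm11772 lay in 15.4 kb that reached Bahcc1, and its summit was 6987 bp downstream. Gm12976 (20.2 kb) and Gm11465 (16.0 kb) lay in domains that reached no coding 5′ end, but that of Gm12976 measured only 3347 bp in replicate 2.

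Lists of known lncRNA genes, fixed by name, held 108 genes of the table, of which 23 were among the 1331 and 15 of these were marked, against 33.8% of all 1331 and 56.7% of all genes. The counts of single lists that follow rest on at most 6 genes each and are to be read against those shares. These lists were chosen with earlier results of these data known. The listed genes not among the 1331 began within 2 kb of a coding gene or had no vM1 gene of their name. The median signal of the 15 was 41.1, against 12.9 over all 450. No member of the stem cell list was among them, since none of its 25 genes in the table, most of them named Platr, had a vM1 gene of that name.

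**Figure D5:**
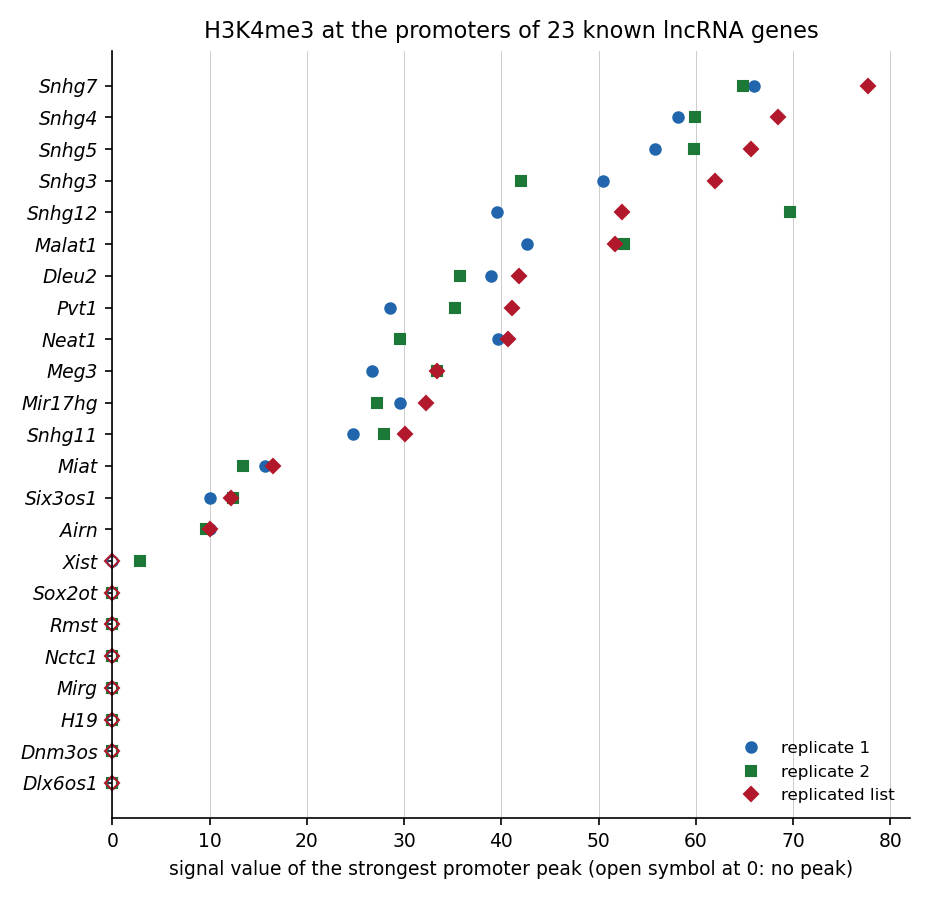
Signal value of the strongest promoter peak (x axis) for 23 known lncRNA genes (y axis) in replicate 1 (blue circles), replicate 2 (green squares) and the replicated list (red diamonds), with open symbols at 0 where no peak was found. Snhg7 lies highest, and 8 genes, Xist among them, have no peak in the replicated list.

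Hosts of small nucleolar RNAs had the highest median signal of the lists. All 6 snoRNA hosts among the 1331 were marked, with a median signal of 63.9 and a range of 30.1 to 77.7. These genes are spliced, and many snoRNAs from such introns guide chemical modification of ribosomal RNA. Snhg3 had 62.0 (50.4 in replicate 1 and 42.0 in replicate 2), Snhg12 52.4 (39.5 and 69.7) and Snhg11, which is known for expression in neurons, 30.1 (24.7 and 28.0). Snhg3 and Snhg12 are neighbours on chromosome 4, and their order was reversed between the replicates. Both microRNA hosts among them were marked as well. Dleu2, host of a microRNA pair, had 41.8 (38.9 and 35.8). Mir17hg, host of a microRNA cluster that promotes growth, had 32.2 (29.6 and 27.2), with its summit at -1970 bp, upstream of the annotated 5′ end.

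All 4 genes of the list of general nuclear and cytoplasmic lncRNAs were marked. Malat1, an RNA of nuclear speckles, had 51.6 (42.7 in replicate 1 and 52.6 in replicate 2) in a domain of 15.4 kb that reached no coding 5′ end. The domain spanned 5796123 to 5811556 of chromosome 19 and so covered most of the gene, which lies at 5795690 to 5802672. Neat1, the scaffold of paraspeckles, lies next to it and had 40.7 (39.6 and 29.6) in a domain of 12.8 kb. Pvt1, 52.6 kb from Myc, had 41.1 (28.6 and 35.2), and Miat 16.5 (15.7 and 13.5). Both replicates thus marked all 4, with Miat the lowest in each.

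Imprinted noncoding genes were mixed. Meg3, expressed from the maternal chromosome at the Dlk1 locus, had 33.4 (26.7 in replicate 1 and 33.4 in replicate 2) in a domain of 7.74 kb. Airn, the paternal antisense RNA that silences Igf2r, had 10.1 (10.03 and 9.59), from a start inside Igf2r and 28.4 kb from its 5′ end. H19, Mirg and Nctc1 had no peak in any of these 3 lists. A peak does not tell the parental copies apart. H19 and Nctc1 lie in 1 imprinted region and begin 45.7 and 26.1 kb from the 5′ end of Mrpl23.

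Of 5 genes listed as neighbours of developmental genes 1 was marked, against 33.8% of all 1331. The list was fixed by name, and not all 5 begin near such a gene. Rmst begins 557.2 kb from the nearest coding 5′ end, that of Nedd1. Dnm3os begins inside Dnm3 and 235.3 kb from the nearest coding 5′ end. Six3os1, beside the eye and forebrain regulator Six3, had 12.2 (10.03 in replicate 1 and 12.4 in replicate 2). Its domain in the replicated list reached the Six3 5′ end. That domain was 5476 bp wide in replicate 1 but only 2022 bp in replicate 2. Dlx6os1, Dnm3os, Rmst and Sox2ot had no peak in the replicated list or in either replicate. Sox2ot begins 89.6 kb from Sox2, a core factor of these cells. Xist, the RNA that coats the inactive X chromosome of female cells, was unmarked in the replicated list and in replicate 1, and had a peak of 220 bp with a signal of 2.85 in replicate 2. Unmarked means only that the list holds no peak around the annotated 5′ end, and other starts of the gene were not examined in mm10.

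Defining markers were read to check the label of the cells. All 10 embryonic stem cell markers, Pou5f1, Nanog and Sox2 among them, were marked in both replicates, against 56.7% of all genes in the replicated list. Of 7 fibroblast markers, listed because stem cells can be grown on feeder fibroblasts, 4 were marked in each list, a share near that of all genes, and Acta2, Col3a1 and Postn were unmarked in the replicated list. The mark does not measure expression, and whether feeder cells were present was not tested. The replicate lists held 86781 and 83750 peaks and the replicated list 62128. Their sequencing depth is unknown.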

How the data were processed

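The authors' mm10 peak lists were used as deposited. The sources used here do not name the aligner or the peak caller. The deposited signal value of a peak was treated as a score whose scale and denominator are not stated, and set side by side across lists without a test. The deposited −log10 of the q-value served only for an alternative threshold. From the deposited pooled mm9 list, whose signal is also a score of the authors, only region edges were used. Genes of the RefSeq table on 348 rows were left out as scaffold rows, judged by a break in the order of start positions. Of these, 6 were lncRNA genes with a vM1 name. The 248 coding genes without a strand gave no 5′ end. No coordinate was moved between builds. Overlaps, medians and Wilson intervals were computed in Python 3.11.15 with pandas 2.3.3, numpy 2.4.6 and scipy 1.17.1, and the overlap step was tested on simulated data. Depth is unknown, which limits the precision of unmarked calls.

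The genes and lists were chosen with earlier results of these data known. Named genes were those of the fixed lists, the 10 highest signals, the 10 widest domains, the 5 strongest low-CpG promoters, the first 5 unmarked high-CpG ones, the 3 nearest the 2 kb limit on either side and the 5 strongest beyond 100 kb. Snhg12, Gm16201 and Gm12784, named for their replicate difference, come from these lists and were picked for it after their values were seen. Alternatives covered peak list, q-value, window, overlap, distance, strand source, build, class and joining distance.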

Additional observations from a re-analysis of the deposited data

How the results depend on the processing

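Between 28.9 and 51.8% of lncRNA promoters were marked under the alternatives, against 33.8% in the main analysis. The single-replicate lists gave 35.0 to 35.8%, with medians of 10.3 in signal and 1733 to 1748 bp in width, 80.5 to 81.2% of high-CpG and 21.9 to 23.1% of low-CpG promoters, and summits 162 to 182 bp downstream. In the order share, median signal, median width, high-CpG share and low-CpG share, the pooled list gave 38.6%, 10.1, 1869 bp, 81.2% and 25.8%. Windows of 500 bp gave 31.4%, 13.6, 1934.5 bp, 78.9% and 18.5%, and of 2 kb 38.2%, 12.7, 1848.5 bp, 83.5% and 25%. A peak over 500 bp of the window gave 28.9%, 16.1, 2079 bp, 76.7% and 16.4%. A limit of 5 kb from coding 5′ ends gave 31.2%, 11.7, 1810 bp, 77.9% and 19.4%, and no limit, with 1897 genes, 51.8%, 30.5, 2380 bp, 93.9% and 26.3%. The cause of these shifts was not tested.

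Peaks with q under 1e-05 gave 32.5%, a signal of 13.6, and 79.7% and 19.5% by class. Strand also through synonyms, with 1485 genes, gave 35.8%, 1911 bp, 83.1% and 22.2%. Without genes that have another 5′ end within 2 kb the values were 33.1%, 12.8, 1904 bp and 78.5% of high-CpG promoters. Outside coding genes they were 31.4%, 12.7, 1691.5 bp and 18.3% of low-CpG promoters. The mm9 list at every vM1 start of 1177 genes gave a width of 2600 bp and 92.3% of high-CpG promoters, and its median signal was not computed, since its scale differs. The 300-base class gave 97.1% and 22.5%. Without joining the width was 1557 bp, with joining under 3 kb 2621.5 bp, and peak midpoints lay 200.25 bp downstream.

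The others were chosen after seeing the data. Without coding starts of the promoter table within 2 kb the values were 31.7%, 11.2, 1798 bp and 75.5% of high-CpG promoters. Without coding genes lacking a strand nearby, signal and width were 12.8 and 1863 bp. Genes with the same strand in both tables gave 81.1% of high-CpG promoters. Genes that vM1 called lincRNA or processed transcript gave 34.5%, 12.8 and 1917 bp. Genes with a 5′ end within 100 bp of a promoter-table start gave a signal of 13.5 and 84.1% of high-CpG promoters.

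A shift counts here when it exceeds the SD of 2 replicates, which is small. The high-CpG share exceeded the low-CpG share under every alternative listed. No paired analysis was possible because both replicates form 1 group. Depth is unknown, and signal cannot be compared between lists beyond setting values side by side.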
